A study of Mus musculus with 8 samples.

Results

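The transcripts of 10 genes that handle iron and heme were followed in cardiac macrophages of mice. They are Hmox1, Blvrb, Slc48a1, Slc40a1, Fth1, Ftl1, Tfrc, Slc11a1, Slc11a2 and Ireb2, and they make up 10 of the 24516 genes in the deposited count table. They were taken by gene symbol, as a list drawn up with earlier results of these data known. RNA was sequenced from macrophages of endocardial origin (EcTM, 4 libraries) and from macrophages not of that origin (non-EcTM, 4 libraries), all sorted by flow cytometry. Every library came from hearts of C57BL/6 mice on postnatal day 28 with the genotype Nfatc1Cre/+; Rosa26Tomato reporter/+, so the non-EcTM carry the same alleles as the EcTM. Cre is expressed from the locus of Nfatc1, a gene of the endocardium, and turns on a Tomato reporter that marks a cell and its descendants. The library names join a letter for the group (E for EcTM, N for non-EcTM) with a number, and the E and N libraries of a number were compared as a pair. Values per library are given below in the order E591, E592, E604, E606 for EcTM and N591, N592, N604, N606 for non-EcTM. The labels leave unsaid what a number stands for and whether the numbers are separate animals, so p-values measure the spread between these libraries, which may be technical.

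Macrophages take up dying red cells and other cells and recover their iron. Heme leaves the phagolysosome through the transporter encoded by Slc48a1 and is opened by heme oxygenase 1 (Hmox1), which releases iron, carbon monoxide and biliverdin. Blvrb encodes an enzyme that reduces flavins and some forms of biliverdin. Freed iron is stored in ferritin shells built of heavy (Fth1) and light (Ftl1) chains, or leaves the cell through ferroportin (Slc40a1), the only known iron exporter of mammalian cells. Iron enters on transferrin through the transferrin receptor (Tfrc) and crosses endosomal and phagosomal membranes through the related metal transporters Slc11a2 and Slc11a1. Ireb2 encodes iron regulatory protein 2, which binds hairpins called iron-responsive elements when iron is scarce. Binding near the start of a transcript blocks its translation, and binding in the 3′ UTR protects the transcript from decay. RNA counts can therefore show the second kind of control and not the first.

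The hairpins are shown because they divide the genes by which of these controls an RNA measurement can see. Coding transcripts of GENCODE release M21 (GRCm38) were searched on the transcript strand for a C, 5 bases, the loop CAGTGN and 5 bases that pair with the first 5, with G-T pairs allowed. All 5 pairs were required, and 294 of 21877 coding genes (1.34%) held a match in a coding transcript, against 4 of the 10 iron and heme genes. In the 30-base windows below, written 5′ to 3′, capitals mark the loop. The Fth1 window lies at chr19:9982732-9982761 on the plus strand, that of Ftl1 at chr7:45459778-45459807 on the minus strand and that of Slc40a1 at chr1:45925464-45925493 on the minus strand, all in the 5′ UTR.
Fth1: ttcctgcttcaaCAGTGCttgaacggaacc
Ftl1: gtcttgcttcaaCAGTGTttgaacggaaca
Slc40a1: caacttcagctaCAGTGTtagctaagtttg

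Tfrc held 4 matches in its 3′ UTR on the plus strand, at chr16:32631219-32631248, chr16:32631598-32631627, chr16:32631663-32631692 and chr16:32631710-32631739, named a to d in that order. Slc11a2 held a hairpin of the same letters with 4 of 5 pairs in the 3′ UTR of 1 coding transcript, at chr15:100395152-100395181 on the minus strand. With 4 pairs allowed, 10.7% of coding genes held a match, against 6 of the 10, and the sixth was Slc11a1 with a match in its coding part. A match describes letters and does not show that the hairpin is bound in these cells.
Tfrc a: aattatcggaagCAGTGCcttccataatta
Tfrc b: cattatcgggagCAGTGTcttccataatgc
Tfrc c: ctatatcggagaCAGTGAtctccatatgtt
Tfrc d: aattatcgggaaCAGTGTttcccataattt
Slc11a2: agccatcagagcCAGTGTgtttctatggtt

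**Figure D1:**
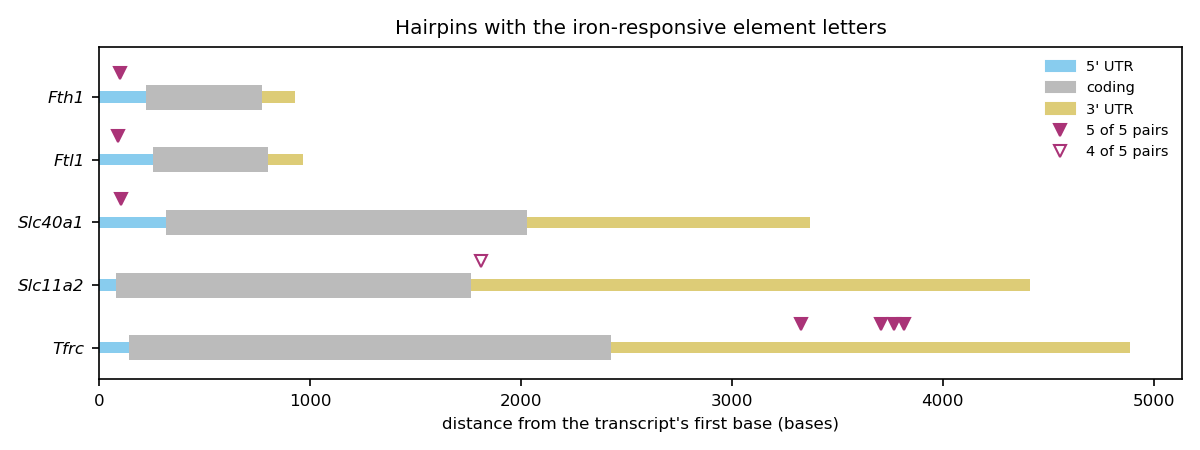
Transcripts of 5 genes drawn to scale from their first base, with the 5′ UTR, coding part and 3′ UTR as bars and triangles at the loops of the hairpins (filled for 5 of 5 pairs, open for 4 of 5). Fth1, Ftl1 and Slc40a1 carry theirs before the coding part, and Slc11a2 and Tfrc after it.

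Counts in genes summed to 2152425 to 2576407 per EcTM library and 2281657 to 2937464 per non-EcTM library, and the 10 genes took 0.251% to 0.343% of them in EcTM, against 0.258% to 0.338% in non-EcTM. Levels are given as CPM, which are TMM-scaled counts relative to library size. All 10 macrophage markers examined were present, with summed levels of 23670 to 24140 CPM in EcTM, against 21640 to 23650 CPM in non-EcTM. Of 10 erythroid markers, 8 were at 0 in every library, among them the globin genes and Alas2, and the list summed to 0 CPM in EcTM, against 0 to 1.98 CPM in non-EcTM. Reads of near-identical globin copies may have been lost in counting. The 8 endothelial markers summed to 30.7 to 264 CPM in EcTM, against 68.9 to 682 CPM in non-EcTM, where N591 was highest, and Pecam1, Tek and Emcn were at 0. Many genes with several transcripts have low counts in this table, though not all: ribosomal protein genes had a median of 374 counts over 8 libraries for 54 genes with 1 curated transcript and 20.5 for 18 genes with more, while Nfe2l2, with 2, had 8926. Slc11a2 has 3 curated transcripts and Fth1, Tfrc and Blvrb have 2 each, so levels are compared between libraries and not between genes.

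The comparison of EcTM with non-EcTM bears on whether macrophages of endocardial origin carry other amounts of iron and heme transcripts than their neighbours. None of the 10 genes passed the test, in either direction. For the abundant genes the intervals were narrow: Hmox1 in EcTM stood at 1.002 times its level in non-EcTM, with a 95% interval of 0.910 to 1.10, and Ftl1 at 0.992 times, with an interval of 0.895 to 1.10. All 10 genes passed the filter on low counts, Fth1 only through its non-EcTM libraries. In edgeR's paired quasi-likelihood test with Benjamini-Hochberg adjustment 0 of 10 had an adjusted p under 0.05, and over all 7667 genes tested 0.013% did (1 gene, Itga9). At an unadjusted p under 0.05 there were 0 of 10, against 5.40% of all genes tested. DESeq2, which gave no adjusted p for 4 of the 10, and limma-voom also called 0. The log2 fold change (EcTM over non-EcTM) was above 0 for 6 and below 0 for 4 of the genes, with a median of 0.02, against -0.01 over all genes tested. The EcTM and non-EcTM libraries overlapped in 10 of 10 genes, whereas 2.70% of all genes tested showed no overlap.

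**Figure D2:**
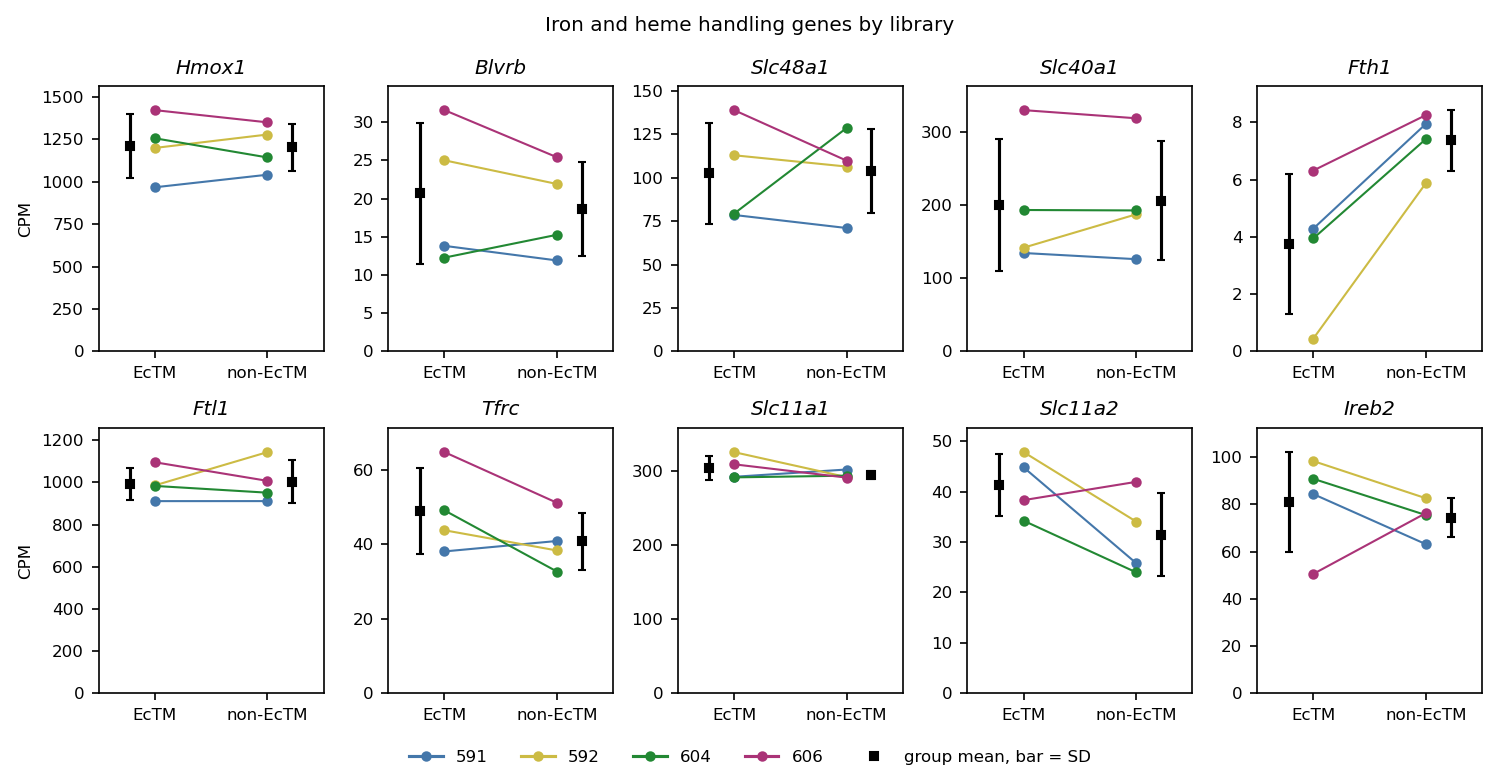
Level in CPM of the 10 genes in each library, with EcTM left and non-EcTM right. Lines join E and N libraries that share a number, and squares with bars give the group mean ± SD (n = 4); the groups overlap in every panel, and in Slc40a1 E606 (329 CPM) and N606 (318 CPM) lie far above the other libraries.

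Among genes of heme breakdown, Hmox1 (Entrez gene 15368, chromosome 8, 75093618 to 75100593 of GRCm38) measured 968, 1200, 1257 and 1423 CPM in EcTM, against 1042, 1279, 1144 and 1351 CPM in non-EcTM. The ranges nearly coincided, and EcTM was the higher in 2 of 4 pairs. The means were 1212 ± 188 CPM in EcTM, against 1204 ± 138 CPM in non-EcTM (SD, n = 4 each), the log2 fold change was 0.00 ± 0.07 (SE) and the adjusted p was 0.998.

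Blvrb, which encodes a biliverdin and flavin reductase (Entrez gene 233016, chromosome 7, 27447978 to 27465981), measured 13.8, 25.0, 12.3 and 31.6 CPM in EcTM, against 11.9, 21.9, 15.3 and 25.4 CPM in non-EcTM. E592, E606, N592 and N606 were high and the other 4 libraries low, so the groups overlapped fully. The log2 fold change was 0.11 ± 0.37 with a 95% interval of -0.66 to 0.87, and the adjusted p was 0.994.

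Slc48a1, the gene of the heme transporter HRG1 (Entrez gene 67739, chromosome 15, 97784365 to 97792692), measured 78.6, 113, 79.4 and 139 CPM in EcTM, against 71.1, 106.5, 129 and 110 CPM in non-EcTM. EcTM was the higher in 3 of 4 pairs, and the exception was the pair of E604 and N604. The groups overlapped, at a log2 fold change of -0.03 ± 0.18 and an adjusted p of 0.998.

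The iron exporter gene Slc40a1 (Entrez gene 53945, chromosome 1, 45908070 to 45926532) measured 134, 142, 193 and 329 CPM in EcTM, against 126, 187, 192 and 318 CPM in non-EcTM. Each library lay close to its partner, except that E592 was below N592, and E606 and N606 stood above all others. The means were 200 ± 90.35 CPM in EcTM, against 206 ± 80.7 CPM in non-EcTM. The log2 fold change of -0.06 ± 0.12, at an adjusted p of 0.990, was small beside that spread.

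Of the ferritin chains, Ftl1 (Entrez gene 14325, chromosome 7, 45457944 to 45459886) measured 911, 986, 983 and 1095 CPM in EcTM, against 911, 1143, 951 and 1007 CPM in non-EcTM. The groups covered the same range, at a log2 fold change of -0.01 ± 0.07 and an adjusted p of 0.998. Fth1 (Entrez gene 14319, chromosome 19, 9980600 to 9985111) was listed with very few reads, 9, 1, 9 and 16 counts in EcTM, against 20, 15, 17 and 25 counts in non-EcTM. EcTM was the lower in 4 of 4 pairs, but E606 exceeded N592 and the groups overlapped. In CPM the means were 3.75 ± 2.44 in EcTM and 7.37 ± 1.06 in non-EcTM. With a log2 fold change of -1.20 ± 0.86 and an adjusted p of 0.964, a difference was not detectable at so few counts. Fth1 passed the filter on low counts only through its non-EcTM libraries. Both chains have pseudogenes, and since the treatment of reads that match several places is unknown here, both counts are uncertain.

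Among genes of iron entry, Tfrc and Slc11a2 carry hairpins after the coding part, where regulation would appear in RNA. Tfrc (Entrez gene 22042, chromosome 16, 32608896 to 32632794) measured 38.1, 43.8, 49.1 and 64.8 CPM in EcTM, against 40.9, 38.4, 32.7 and 51.2 CPM in non-EcTM. EcTM was the higher in 3 of 4 pairs and the groups overlapped, at a log2 fold change of 0.25 ± 0.24 and an adjusted p of 0.964. Slc11a2, which encodes DMT1 (Entrez gene 18174, chromosome 15, 100387898 to 100424209), measured 44.8, 47.8, 34.2 and 38.3 CPM in EcTM, against 25.8, 34.1, 24.0 and 41.9 CPM in non-EcTM. Here too EcTM was the higher in 3 of 4 pairs, and E606 lay below N606. Its log2 fold change of 0.41 ± 0.27 was the largest positive one of the 10 genes, with a 95% interval of -0.16 to 0.98 and an adjusted p of 0.949. Counts per gene do not separate the Slc11a2 transcript that carries the hairpin from those that lack it.

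Slc11a1, which encodes NRAMP1 of the phagosome membrane (Entrez gene 18173, chromosome 1, 74375014 to 74386057), measured 292, 325, 291 and 308 CPM in EcTM, against 301, 291, 293 and 291 CPM in non-EcTM. C57BL/6 mice are known to carry an allele of it that yields no working protein. The 8 libraries lay close together, at a log2 fold change of 0.05 ± 0.10 and an adjusted p of 0.990. Ireb2 (Entrez gene 64602, chromosome 9, 54862658 to 54912534) measured 84.3, 98.3, 90.8 and 50.5 CPM in EcTM, against 63.15, 82.6, 75.5 and 76.3 CPM in non-EcTM. EcTM was the higher in 3 of 4 pairs, while E606 was the lowest of all 8. The log2 fold change was 0.09 ± 0.20 and the adjusted p 0.990.

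**Figure D3:**
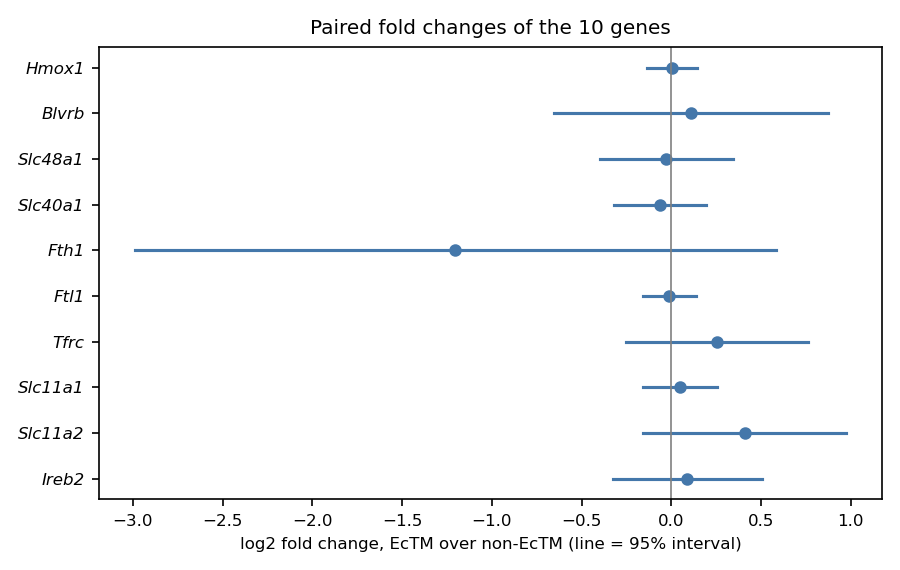
Log2 fold changes of the 10 genes, EcTM over non-EcTM, from the paired edgeR fit, with lines for 95% intervals. Every interval includes 0, those of Hmox1, Ftl1 and Slc11a1 are narrow, and that of Fth1 runs from -2.99 to 0.58.

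The 4 numbers differed in Slc40a1 and Hmox1, where the cell groups did not pass. Slc40a1 averaged 324 CPM in E606 and N606, against 193 CPM in E604 and N604, 164 CPM in E592 and N592 and 130 CPM in E591 and N591. The highest number lay 1.31 above the lowest on the log2 scale, or 2.48-fold, and the adjusted p over the 4 numbers was 7.65e-05 in the same paired edgeR fit. Hmox1 averaged 1387 CPM in E606 and N606, against 1200 CPM in E604 and N604, 1240 CPM in E592 and N592 and 1005 CPM in E591 and N591. That is a range of 0.46 on the log2 scale, or 1.38-fold, with an adjusted p of 0.0272. By this rule 2 of the 10 genes differed between numbers, against 3.04% of all genes tested, and at an unadjusted p under 0.05 there were also 2 of 10, against 11.2%. The test takes the E and N library of a number as its only repeats, and an animal, a litter or a day of work behind a number cannot be told apart.

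Slc40a1 in E606 and N606 exceeded the libraries of each other number. The log2 difference was 1.32 ± 0.18 (SE) over E591 and N591, 0.98 ± 0.17 over E592 and N592 and 0.75 ± 0.17 over E604 and N604. Their adjusted p-values in edgeR's test were 6.09e-05, 0.00194 and 0.0248, with all 6 pairs of numbers and all genes adjusted together. Of the 46002 gene and pair tests 1.18% passed, and of all genes 1.46% passed in E606 and N606 over E591 and N591. The remaining numbers did not pass against each other in Slc40a1, and the largest of these differences was 0.57 ± 0.18, for E604 and N604 over E591 and N591, with an adjusted p of 0.177. In Hmox1 the difference of E606 and N606 over E591 and N591 passed, at 0.46 ± 0.10 and an adjusted p of 0.00924, and the other 5 pairs did not. Without E606 and N606 the range of Slc40a1 was 0.55 with an adjusted p of 0.415. For Hmox1 the adjusted p was 0.576 without E591 and N591, 0.285 without E606 and N606 and 0.0563 with the cell group left out of the model. The pairs of numbers were compared after the first result was seen.

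**Figure D4:**
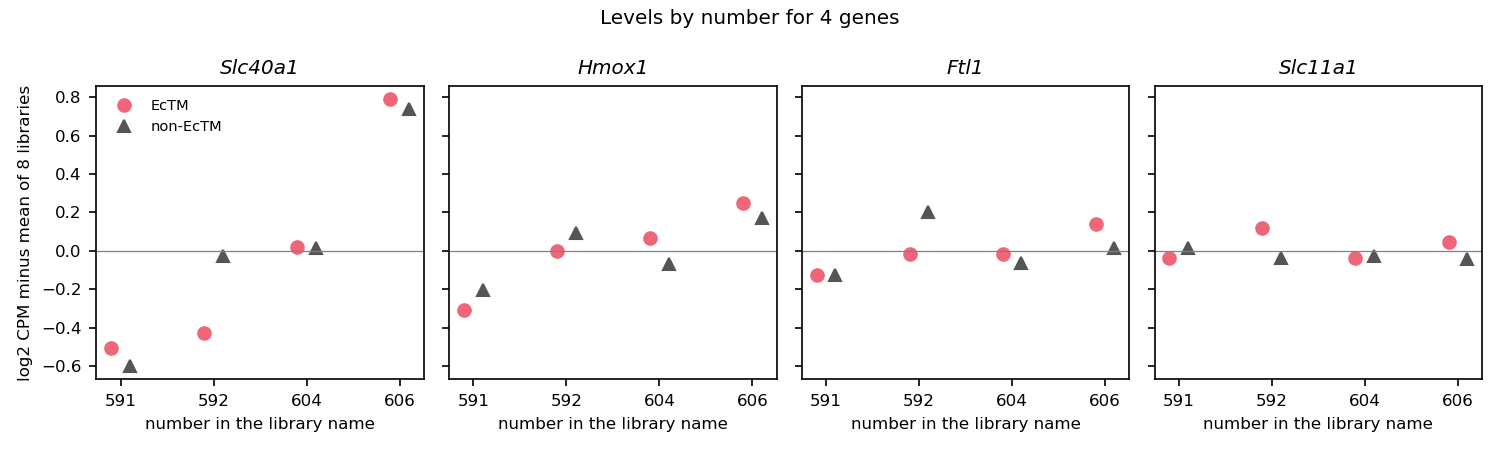
Log2 CPM minus the gene's mean over 8 libraries, by number, for EcTM and non-EcTM libraries in 4 genes. In Slc40a1 E606 and N606 stand above the rest, in Hmox1 E591 and N591 stand lowest, and each point is 1 library.

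Several measures were set beside these differences. E606 and N606 had the largest total count of their groups, 2576407 and 2937464, and the part of depth in the result was not tested. The macrophage markers summed to 23790 CPM in E606 and 21640 CPM in N606, against 23670 CPM in E591 and 23310 CPM in N591. Of these 10 markers 3 (Fcgr1, Cx3cr1 and Lyz2) passed between numbers in edgeR's test, against 3.04% of all genes tested. Within each group Fcgr1 and Cx3cr1 were highest, and Lyz2 lowest, in E604 and N604. The 6 markers of resident macrophages, of which Folr2 was at 0, had their lowest sums in E606 and N606. These were 7601 CPM in E606, against 7793 to 8820 CPM in the other EcTM, and 7924 CPM in N606, against 8114 to 9489 CPM in the other non-EcTM. Among them Lyve1, a marker of resident heart macrophages, had 1720 CPM in E606 and 1828 CPM in N606, against 2147 to 2695 CPM in the other 6 libraries. Its adjusted p between numbers in edgeR's test was 0.00164, and of 5 tested only Lyve1 passed. Mrc1 had 5207 CPM in E606 and 5299 CPM in N606, above 4908 CPM in E591 and 4862 CPM in N591. Both were below the 5387 to 5857 CPM of E592, E604, N592 and N604. Timd4 was lowest of its group in E606 only, and Cd163 and Cbr2 in N606 only. The part of the low Lyve1 in the level of Slc40a1 was not tested. The endothelial markers summed to 187 CPM in E606 and 98.7 CPM in N606, against 264 CPM in E591 and 682 CPM in N591. E591 and N591 were highest of their groups also in the sums of fibroblast markers (126 and 188 CPM), mural markers (70.0 and 198 CPM) and cardiomyocyte markers (135 and 159 CPM). Between numbers 3 of 4 tested endothelial, 2 of 3 fibroblast, 1 of 3 mural and 0 of 6 cardiomyocyte markers passed. The part of these cells in the low values of Slc40a1 and Hmox1 in E591 and N591 was not tested. Erythroid markers summed to 0 CPM in E606 and 1.98 CPM in N606. The Y-linked gene Ddx3y had 260 counts in E592 and 307 in N592 and at most 7 in any other library. Xist, a transcript of female cells, had 1 count in E592 and 8 in N592, against 935 to 1682 in the other libraries. By these counts E592 and N592 were male and all other libraries female. E606 and N606 were thus of the same sex as E591, N591, E604 and N604. The part of sex in the values of E592 and N592 was not tested. In bulk libraries, fewer cells that express a gene and less of its RNA per cell cannot be told apart.

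The other 8 genes did not pass between numbers. Slc48a1 came closest, with a range of 0.72 on the log2 scale, an unadjusted p of 0.0528 and an adjusted p of 0.452 in edgeR's test, and was highest on average in E606 and N606 and lowest in E591 and N591. Blvrb had a range of 1.09 with an adjusted p of 0.576, and Ftl1 one of 0.22 with an adjusted p of 0.610. Slc11a1 varied least, by 0.07, and 0.470% of the genes tested had a smaller range. The range was 0.53 for Tfrc, 0.48 for Slc11a2, 0.53 for Ireb2 and 1.47 for Fth1, with adjusted p-values of 0.803 to 0.923. The highest mean CPM of a number was that of E606 and N606 in 6 of 10 genes, and the lowest that of E591 and N591 in 6 of 10. Over all genes tested, ranked by mean log2 CPM instead, these shares were 24.6% and 28.7%. The 6 genes highest in E606 and N606 include Slc40a1, Hmox1 and Fth1, which has low counts. Of the 233 genes that passed between numbers, E606 and N606 were highest in 45 and E591 and N591 lowest in 32. The median range of the 10 genes was 0.53, against 0.64 over all genes tested.

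The wider pathway was followed with 9 lists of 81 genes, which include the 10 above. Of these genes 52 were tested and 9 were at 0 in every library, among them Heph, Alad and Pcbp2. These 3 have 4, 2 and 5 curated transcripts, and many such genes have low counts here, so a 0 need not mean absence. In EcTM against non-EcTM 0 rose and 0 fell by the edgeR test, where 0.013% of all genes tested passed. By limma-voom, or by DESeq2, which gives no adjusted p to genes of low counts, 0 were called. A single gene of the 52, Epas1, had an unadjusted p under 0.05, against 5.40% of all genes tested. The log2 fold change was above 0 for 29 and below 0 for 23 of the 52, with a median of 0.02. Between numbers 3 of the 52 passed, Slc40a1, Hmox1 and Epas1, against 3.04% of all genes tested, and 4 of the 52 had an unadjusted p under 0.05, against 11.2%.

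Epas1, of the iron sensing list, encodes the hypoxia-inducible factor HIF-2α and is abundant in endothelium. It measured 233, 36.6, 71.5 and 100.7 CPM in EcTM, against 388, 66.5, 112 and 66.3 CPM in non-EcTM. E591 and N591 were highest in their groups, as they were in the sum of endothelial markers, whose part in this difference was not tested. Among EcTM, Cdh5, Tie1 and Flt1 were highest in E591, but Kdr in E606 and Vwf in E604. Among non-EcTM, all of these were highest in N591. The range between numbers was 2.59 on the log2 scale with an adjusted p of 6.65e-07, and without E591 and N591 it was 0.85 with an adjusted p of 0.365. Between the cell groups the log2 fold change was -0.41 ± 0.19 with an unadjusted p of 0.0411 and an adjusted p of 0.907.

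In the other lists no further gene passed either test, and the gene with the smallest unadjusted p of each is given. In the list of iron uptake and reduction, the lysosomal channel gene Mcoln1 had a log2 fold change of -0.43 ± 0.24 and an adjusted p of 0.931. Steap4, a metalloreductase gene, ranged by 1.23 between numbers with an adjusted p of 0.875. Pcbp1, whose product delivers iron to ferritin, had 0.18 ± 0.10 and an adjusted p of 0.931. The ferroxidase gene Cp had -0.54 ± 0.97 and an adjusted p of 0.989. Among heme breakdown genes, Blvra, the other biliverdin reductase gene, averaged 42.5 ± 10.9 CPM in EcTM, against 57.0 ± 11.6 CPM in non-EcTM, with a log2 fold change of -0.43 ± 0.25 and an adjusted p of 0.931. Hmox2, the constitutive heme oxygenase gene, ranged by 0.75 between numbers with an adjusted p of 0.721.

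Among genes of heme capture and transport, Slc46a1, which encodes a folate and heme carrier, had a log2 fold change of -0.65 ± 0.80 and an adjusted p of 0.976. Lrp1, the hemopexin receptor gene, averaged 4047 ± 159 CPM in EcTM, against 4039 ± 322 CPM in non-EcTM, and its range between numbers was 0.17 with an adjusted p of 0.508. In heme synthesis 3 of 8 tested genes had values above 0 and 5 below. Ppox had -1.15 ± 0.69 with an adjusted p of 0.941, and Urod ranged by 0.81 between numbers with an adjusted p of 0.447. In the mitochondrial list the scaffold gene Iscu had -0.37 ± 0.38 with an adjusted p of 0.968, and the iron importer gene Slc25a28 ranged by 1.06 with an adjusted p of 0.465. Of the regulators and targets that respond to heme and oxidants, 8 of 10 tested had log2 fold changes above 0. Their median was 0.11, while over all genes tested the median log2 fold change, sign ignored, was 0.20. In edgeR's test 0 of these 10 had an unadjusted p under 0.05, against 5.40% of all genes tested. The transcription factor gene Nfe2l2 averaged 478 ± 51.9 CPM in EcTM, against 436 ± 23.7 CPM in non-EcTM, with a log2 fold change of 0.13 ± 0.09 and an adjusted p of 0.959. The sulfiredoxin gene Srxn1 ranged by 1.20 between numbers with an unadjusted p of 0.00437 and an adjusted p of 0.106.

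**Figure D5:**
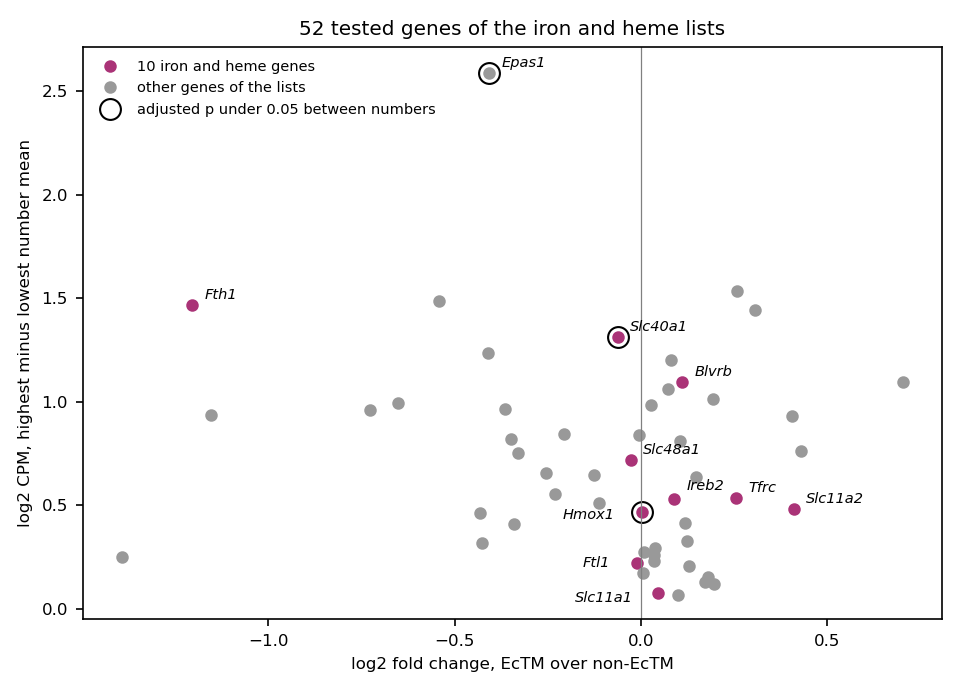
For the 52 tested genes of the iron and heme lists, the log2 fold change of EcTM over non-EcTM (x) and the log2 difference between the highest and lowest number mean (y). Rings mark an adjusted p under 0.05 between numbers (Slc40a1, Hmox1 and Epas1), and Slc40a1 and Hmox1 lie near 0 on the x axis.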

How the data were processed

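Total RNA of sorted macrophages was made into stranded libraries with a kit for picogram inputs, per the labels' protocols. Per the submitters' processing notes, bcl2fastq 2.17, TopHat, DESeq2 and R 3.2 were used, with mm10. No source used here names the counting program, its annotation or how it treated strand. The authors deposited whole-number counts for 24516 genes in 8 libraries, all used here as deposited, and log2 values under a CPM heading, used in 1 alternative only.

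Counts were fitted in edgeR 4.0.16 (R 4.3.3) with TMM scaling, filterByExpr, and number and group in the model. The quasi-likelihood F-test was run for the group and for the 3 number terms, with Benjamini-Hochberg adjustment over 7667 genes, which hold 99.3% of counts, at a threshold of 0.05. The SE of a log2 fold change is its size divided by the square root of F. Log2 CPM use a prior count of 2. Intervals are at 95%. The range between numbers is the highest minus the lowest mean log2 CPM of a number.

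The number was used as a replicate block because the libraries were compared in pairs of the same number. After removal of group means, libraries of the same number correlated across genes at 0.122 to 0.186, over the minimum of 0.1, and others at -0.127 to 0.053.

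The 10 genes and the lists were chosen with earlier results of these data known. Besides the 10 genes, the text names from each list every other gene past the threshold. It also names the tested gene outside the 10 with the smallest unadjusted p in each test. Genes were matched by Entrez number to RefSeq (GRCm38.p6) for 24447 of 24516, and hairpins were read from GENCODE M21 transcripts. Alternatives used DESeq2 1.42.0, limma 3.58.1 with voom, other scalings and filters, robust dispersions and leaving out each number. The fits were tested on simulated data. Python 3.11.15 with matplotlib 3.10.9 made the figures.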

Additional observations from a re-analysis of the deposited data

Results flagged for a closer look

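Of 50 groups of 4 libraries, from 25 named genes, 3 held a library far from the other 3, and chance flags about 1 group in 20. Epas1 stood at 387.6 CPM in N591, where N592, N604 and N606 had 66.3 to 112 CPM. Slc46a1 stood at 24.23 CPM in N591, against 6.26 to 7.59 CPM in the others of its group. N591 also had the highest sum of endothelial markers, 682 CPM, whose part in these values was not tested. Hmox2 stood at 64.91 CPM in E604, against 24.5 to 28.6 CPM in the other EcTM libraries, and it has 4 curated transcripts.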

How the results depend on the processing

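Over up to 14 alternatives per gene, 0 of the 10 genes passed between EcTM and non-EcTM (135 values, with no adjusted p in DESeq2 for 4 genes). Genes removed by a filter, or with several transcripts where those were left out, have no value there. The paired fit called 1 gene higher and 0 lower over all 7667 genes tested, while the fits with no filter and with DESeq2 took in 14319 genes. Without the replicate block it was 0 higher and 0 lower, with robust dispersions or only genes with 1 curated transcript 0 higher, with the deposited log2 values 2 higher, with no filter 5 higher and 5 lower, with limma-voom 15 and 4, and with DESeq2 21 and 5. Leaving out a number gave 1 higher and 0 to 1 lower. No iron or heme gene was among these. Between numbers the fit called 233 of 7667 genes, against 299 of 7667 with limma-voom and 146 to 179 with a number left out. With no filter it was 350 of 14319 and with DESeq2 442 of 14319. Of the lists it called 3 of 52 genes, against 5 of 52 with limma-voom, 5 of 72 with DESeq2 and 1 to 3 of 52 with a number left out. Slc40a1 passed in 13 of 14 alternatives and Hmox1 in 11 of 14. Leaving out a number turned the direction of the genes listed next, among them Cp, Slc46a1 and Steap4, which stood at -0.54, -0.65 and -0.41 in the paired fit. The log2 fold change without a number ran from -0.061 to 0.059 for Ftl1, -0.043 to 0.040 for Hmox1, -0.018 to 0.31 for Ireb2, -0.11 to 0.051 for Slc40a1 and -0.16 to 0.19 for Slc48a1. It ran from -1.05 to 0.15 for Cp, -0.030 to 0.043 for Lrp1, -0.22 to 0.20 for Slc25a28, -1.42 to 0.24 for Slc46a1, -0.085 to 0.40 for Srxn1, -1.01 to 0.20 for Steap4 and -0.081 to 0.27 for Urod. Hmox1 was at -5e-04 with no filter and -6e-04 with genes of 1 curated transcript. The cause was not tested. Low counts limit Fth1 and Cp, each with 1 to 25 per library.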

Other observations

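Blvrb and Srxn1, named together after their values were seen, had their high and low libraries at the same numbers. Srxn1 had 119 and 103 CPM in E592 and E606 and 93.5 and 84.5 CPM in N592 and N606, against 31.9 and 69.7 CPM in E591 and E604 and 64.7 and 46.2 CPM in N591 and N604. Blvrb had at least 21.9 CPM in E592, E606, N592 and N606 and at most 15.3 CPM in the other 4 libraries. Neither passed between numbers in the edgeR test. Srxn1 passed in 4 of 14 alternatives and Blvrb in 0 of 13.

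Fth1 had 112 counts over 8 libraries. The table places the start of Fth1 at base 9982646 of chromosome 19, before the hairpin of its 5′ UTR. That is 2046 bases inside the gene as RefSeq draws it. The start of Blvrb lies 4440 bases and that of Ireb2 1097 bases inside in the same way. RefSeq lists 2 pseudogenes named for Fth1 and 3 named for Ftl1, and 0 of these are among the genes of the table. The part of any of this in the low count of Fth1 was not tested.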
